A study of Homo sapiens with 6 samples.

Results

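Condensin and cohesin are ring-shaped complexes that fold and tether chromosomes. The 10 subunit genes described here were SMC2, SMC4, NCAPD2, NCAPG and NCAPH, which form condensin I, NCAPD3 of condensin II, and SMC1A, SMC3, RAD21 and STAG2 of cohesin. They were taken by name from a table of 23382 gene names, and each had 1 row. RNA was sequenced from UM-UC-3 (labelled UMUC3), a human bladder cancer cell line, in 6 libraries, 3 from cells labelled negative control and 3 from cells labelled si-CPSF3, a small interfering RNA against the endonuclease that cleaves pre-mRNA before polyadenylation. The labels give no siRNA sequence, dose or time after transfection, and all libraries share the 1 cell line. They number the libraries of a group 1 to 3 without saying whether these were separate cultures, so p-values measure the spread between libraries, which may be technical.

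Each complex pairs SMC proteins, long coiled-coil ATPases that meet at a hinge, with a kleisin that closes the ring and with HEAT-repeat proteins that dock on the kleisin. Condensin extrudes DNA loops and compacts chromosomes as cells enter mitosis, condensin II from inside the nucleus and condensin I after the nuclear envelope breaks down. Cohesin holds sister chromatids together from S phase until separase cuts its kleisin at anaphase, and in interphase it forms loops that stop at CTCF. STAG2 is among the genes recurrently inactivated in bladder cancer.

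Of the 3 non-SMC subunits of condensin I, 2 fell, and no cohesin subunit passed the test in either direction. NCAPH, the kleisin of condensin I, and NCAPD2, its HEAT-repeat subunit, were lower in the libraries labelled si-CPSF3 by 5.39-fold and 2.71-fold (edgeR quasi-likelihood test, p adjusted over all genes tested, 0.00982 and 0.00220). Of 9 subunits with enough counts to be tested, these 2 passed as lower and 0 as higher, where 1.51% of all 11069 genes tested passed as lower and 2.23% in either direction. The subunits were chosen with earlier results of these data known, so these counts describe chosen genes. The median log2 fold change was -0.76 over the 5 tested condensin genes and -0.21 over the 4 cohesin genes, beside -0.01 over all genes tested. With all libraries kept the condensin median is the value of SMC2. With 1 library left out the condensin median ranged from -1.18 without si-CPSF3 replicate 1 to -0.49 without si-CPSF3 replicate 3. That of cohesin ranged from -0.27 without si-CPSF3 replicate 3 to -0.10 without si-CPSF3 replicate 1. Whether condensin differed from cohesin was not tested. In bulk RNA, fewer cells in a state that makes a transcript and less of the transcript per cell cannot be told apart.

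The targeted gene does not bear out the labels. CPSF3 had 20, 50 and 36 counts in control and 56, 38 and 66 under the si-CPSF3 label, a log2 fold change of 0.67 (SE 0.32) that did not pass (edgeR adjusted p = 0.329; two-sided exact permutation test of CPM, counts scaled to library size, p = 0.3, where 0.1 is the smallest value possible). The value was above 0 in every setting tried and ranged from 0.38 without control replicate 1 to 0.91 without control replicate 2, with 0.36 on log2(FPKM + 1). Groups are therefore named by label throughout, and every direction below is of the libraries labelled si-CPSF3 against control. Counts per library lay between 4145385 and 4378899 after 1 row per gene name was kept, and ribosomal protein genes took 47.0% to 52.6% of them. Among cell identity markers, keratins KRT8 and KRT18 and the mesenchymal filament gene VIM were present in all 6 libraries. Keratin KRT19, the epithelial adhesion genes EPCAM and CDH1 and the urothelial plaque gene UPK2 had 0 counts in each. Keratin KRT7 had 9 to 25 counts. Of the other mesenchymal markers, ZEB1 had 38 to 56 counts, CDH2 11 to 29 and FN1 0 to 2. Of the luminal markers, UPK1B had 12 to 29 counts and PPARG 19 to 31, while GATA3, FOXA1 and UPK1A had 0 to 7. Of 6 leukocyte markers 3 had a row, with a summed level of 38.6 to 43.4 CPM in the control libraries and 27.7 to 34.4 CPM in the others, nearly all from CD68 and LYZ, while CD14 had 0 to 2 counts. Luminal markers summed to 12.5 to 14.6 and 9.40 to 10.9 CPM in the same order. Mesenchymal markers summed to 284 to 333 and 232 to 272 CPM, of which VIM alone was 253 to 298 and 211 to 251 CPM. SPARC, a secreted matrix glycoprotein named here after its values were seen, was the 1 marker of the mesenchymal list to pass. It had 90, 62 and 65 counts in control and 16, 8 and 20 in the other group (log2 fold change -2.22, SE 0.33, edgeR adjusted p = 0.00208). The part of these shifts in the subunit results was not tested. The 1 endothelial and 1 erythroid marker with a row, PECAM1 and HBA1, had 0 to 2 counts in any library.

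**Figure D1:**
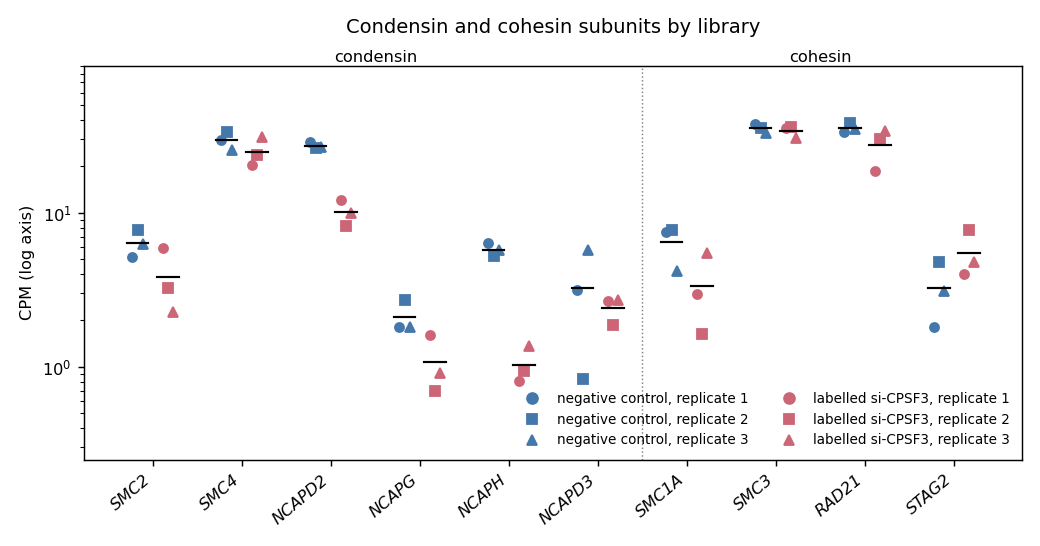
CPM of each subunit in each of the 6 libraries on a log axis, with replicates marked by shape and the group mean by a bar. NCAPD2 and NCAPH lie in separate bands by group, as does NCAPG at a lower level, while the libraries of the other 7 subunits overlap between groups.

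NCAPD2 lies on chromosome 12 from 6493356 to 6531955 (GRCh38). Control replicates 1, 2 and 3 held 127, 126 and 103 counts of it, against 45, 35 and 44 under the si-CPSF3 label. Every control library was above every library of the other group, with little spread within either. The level was 27.3 ± 1.28 CPM in control and 10.1 ± 1.96 CPM in the other group (SD, n = 3 in each). That is a log2 fold change of -1.44 (SE 0.21), and the 95% interval of the decrease ran from 1.98-fold to 3.70-fold. Leaving out any 1 of the 6 libraries kept the call (edgeR adjusted p 0.00693 to 0.0189). On the deposited FPKM values, which are scaled to transcript length by the authors, the direction was the same at 6.03 ± 0.24 and 2.21 ± 0.22 FPKM (SD, n = 3), but the call was lost (log2(FPKM + 1) fold change -1.13, limma adjusted p = 0.115). The exons of NCAPD2 share 486 bases with MRPL51, a mitochondrial ribosomal protein gene on the opposite strand with 749 to 919 counts per library and a log2 fold change of -0.05 (SE 0.16), and whether the counting used strand is not stated in the sources used here.

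NCAPH, on chromosome 2 from 96335787 to 96373845, had the largest change of the tested subunits. Its counts were 28, 25 and 22 in control but 3, 4 and 6 under the si-CPSF3 label, so the highest library of the second group was below the lowest control. The level went from 5.75 ± 0.56 to 1.03 ± 0.29 CPM (SD, n = 3), a log2 fold change of -2.43 (SE 0.45) whose 95% interval spans a 2.78-fold to 10.4-fold decrease. The few counts make this size uncertain. NCAPH had under 10 counts in every si-CPSF3 library and met the filter on low counts through the control group. The call was lost without control replicate 1 (edgeR adjusted p = 0.0562) and without si-CPSF3 replicate 2 (adjusted p = 0.0556), with log2 fold changes of -2.36 and -2.34. No other annotated gene shares exonic bases with NCAPH in GENCODE 29.

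NCAPG, the other HEAT-repeat subunit of condensin I (chromosome 4, 17810902 to 17844862), had too few counts for the test. Control libraries held 8, 13 and 7 counts and the others 6, 3 and 4. These groups did not overlap either, at 2.11 ± 0.52 and 1.07 ± 0.48 CPM (SD, n = 3). When the filter on low counts was dropped, its log2 fold change was -0.98 and did not pass (edgeR adjusted p = 0.670). Non-overlapping groups with the si-CPSF3 label lower were seen for 3 of the 10 subunits, 2 of them tested, and for 11.4% of all genes tested. NCAPG shares 1631 exonic bases with LCORL on the opposite strand, a gene with 9 to 15 counts per library.

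The promoter windows of these 3 genes are shown with that of SMC3, a cohesin subunit with a log2 fold change of -0.06 that did not pass, because promoters of genes that peak in G2 and M phase often carry a CHR element (TTTGAA), bound by the MuvB core, near CCAAT boxes, bound by NF-Y. Each window holds 250 bases before and 50 after a RefSeq start (GRCh38.p14, all on the plus strand of the chromosome). The capitals mark TTTGAA and CCAAT or their reverse complements.
NCAPD2, chr12:6493852-6494151: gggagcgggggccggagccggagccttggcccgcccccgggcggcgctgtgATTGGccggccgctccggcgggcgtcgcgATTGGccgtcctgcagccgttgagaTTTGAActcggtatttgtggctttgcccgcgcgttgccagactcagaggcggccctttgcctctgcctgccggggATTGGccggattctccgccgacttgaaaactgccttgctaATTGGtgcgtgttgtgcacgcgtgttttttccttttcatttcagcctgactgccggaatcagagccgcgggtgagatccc
NCAPH, chr2:96335516-96335815: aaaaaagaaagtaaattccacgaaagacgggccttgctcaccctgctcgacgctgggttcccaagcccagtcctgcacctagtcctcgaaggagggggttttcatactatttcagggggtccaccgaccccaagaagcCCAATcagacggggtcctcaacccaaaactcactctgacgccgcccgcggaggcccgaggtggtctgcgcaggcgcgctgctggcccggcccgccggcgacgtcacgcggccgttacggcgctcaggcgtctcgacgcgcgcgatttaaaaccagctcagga
NCAPG, chr4:17810729-17811028: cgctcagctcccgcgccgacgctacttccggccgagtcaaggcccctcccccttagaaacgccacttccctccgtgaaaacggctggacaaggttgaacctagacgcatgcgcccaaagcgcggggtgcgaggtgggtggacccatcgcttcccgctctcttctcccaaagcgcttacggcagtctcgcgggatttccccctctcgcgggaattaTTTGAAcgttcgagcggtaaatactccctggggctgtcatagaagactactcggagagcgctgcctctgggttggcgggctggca
SMC3, chr10:110567445-110567744: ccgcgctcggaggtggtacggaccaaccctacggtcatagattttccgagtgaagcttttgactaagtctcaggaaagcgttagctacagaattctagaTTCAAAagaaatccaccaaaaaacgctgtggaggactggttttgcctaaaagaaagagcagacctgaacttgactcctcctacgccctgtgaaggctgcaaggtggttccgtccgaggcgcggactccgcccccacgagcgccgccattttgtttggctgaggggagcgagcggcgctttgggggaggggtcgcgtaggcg

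The NCAPD2 window holds TTTGAA at position -145 from the start together with 4 reversed CCAAT boxes, a number of CCAAT matches reached by 0.991% of 35116 windows in the table. That cutoff is the count of this window itself, so the share is a description and not a test. NCAPG has TTTGAA at -35 and no CCAAT, and NCAPH has CCAAT at -112 and no TTTGAA. SMC3 carries TTTGAA on the reverse strand at -151. All subunits but RAD21, 9 of 10, had a window in the table, 15 windows in all. TTTGAA stood on either strand in 6 of these windows, 1 each of SMC2, SMC4, NCAPD2, NCAPG, NCAPD3 and SMC3, against 15.2% of all windows. CCAAT stood in 5 windows, of NCAPD2, NCAPH, NCAPD3 and STAG2, against 34.6% of all. Matches were thus found in subunits that fell and in subunits that did not pass, and the 2 called subunits share CCAAT but not TTTGAA. Only these exact letters and their reverse complements were searched, so sites that differ by a base were not looked for. A match of letters is not evidence of binding.

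Neither SMC subunit of condensin passed the test. SMC4 (chromosome 3, 160399274 to 160434962) had 131, 161 and 98 counts in control, against 76, 101 and 136 under the si-CPSF3 label, and these ranges overlap. Its level was 29.6 ± 4.03 and 24.9 ± 5.35 CPM (SD, n = 3), a log2 fold change of -0.24 (95% interval -0.66 to 0.18, edgeR adjusted p = 0.616). That interval does not reach the point estimate of NCAPD2. SMC2, the other ATPase (chromosome 9, 104094260 to 104141417), had 23, 37 and 24 counts and then 22, 14 and 10. In CPM, replicate 1 of the si-CPSF3 label lies inside the control range. It stood at 6.38 ± 1.26 and 3.82 ± 1.88 CPM, and the log2 fold change of -0.76 (95% interval -1.59 to 0.06) did not pass (edgeR adjusted p = 0.378). The interval allows both no change and a decrease as large as that of NCAPD2, and the estimate was -1.18 without si-CPSF3 replicate 1 and -0.49 without si-CPSF3 replicate 3. SMC4 shares 1561 exonic bases with TRIM59 and 607 with IFT80, both on the opposite strand and both at 44 counts or fewer in any library.

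Summed over SMC2, SMC4, NCAPD2, NCAPG and NCAPH, transcripts went from 71.1 ± 4.70 to 40.9 ± 4.34 CPM (SD, n = 3). RNA does not show which part of SMC2 and SMC4 serves condensin I. The 3 non-SMC subunits made up 51.4%, 45.3% and 52.0% of the summed counts in control replicates 1, 2 and 3. Under the si-CPSF3 label they made up 35.5%, 26.8% and 27.0%. These counts are not scaled to length, and the share largely restates NCAPD2. That gene held 127 of the 163 non-SMC counts in control replicate 1 and 45 of 54 in si-CPSF3 replicate 1. The 4 cohesin subunits summed to 80.6 ± 5.42 and 70.3 ± 8.05 CPM. These sums describe chosen genes and were not tested.

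NCAPD3, a HEAT-repeat subunit of condensin II (chromosome 11, 134150119 to 134225454), was too variable to place. It had 14, 4 and 22 counts in control and 10, 8 and 12 in the other group, and the control libraries span all values of the second group. Its log2 fold change of -0.38 (95% interval -1.60 to 0.84) turned to 0.31 without control replicate 3. NCAPH2, the kleisin of condensin II, was measured more deeply, at 24.4 ± 2.21 and 22.7 ± 3.49 CPM (SD, n = 3), with a log2 fold change of -0.10 (SE 0.19, edgeR adjusted p = 0.855). NCAPG2 was not tested: it had 6, 4 and 14 counts in control and 1, 2 and 1 under the si-CPSF3 label.

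**Figure D2:**
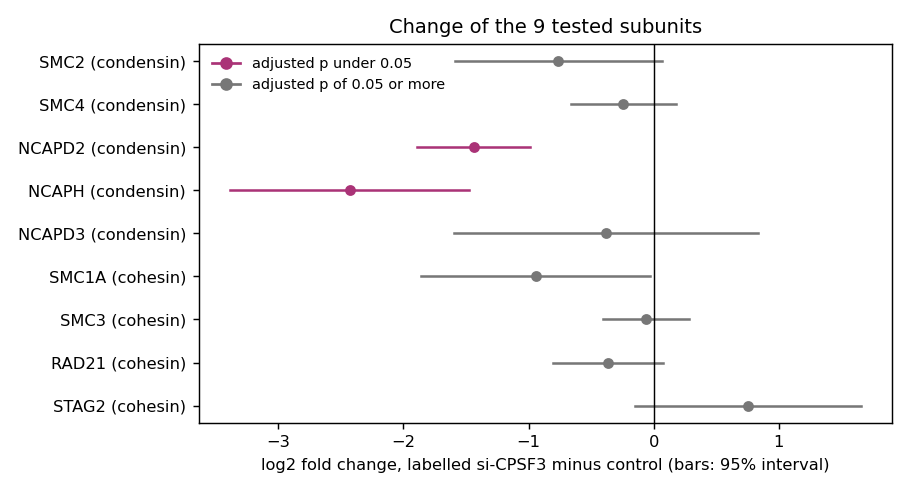
Log2 fold change of the 9 tested subunits with its 95% interval, coloured by whether the adjusted p was under 0.05. The intervals of NCAPD2 and NCAPH lie wholly below 0, SMC1A also lies below 0 without passing the adjusted threshold, and STAG2 has its estimate above 0.

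Among cohesin subunits 0 of 4 passed in edgeR in either direction, with 1 at an unadjusted p under 0.05. The share of all genes under that unadjusted level was not computed. DESeq2 and limma-voom gave 0 calls as well. SMC3, an ATPase whose acetylation locks cohesin on chromatids (chromosome 10, 110567691 to 110604636), had 167, 170 and 127 counts in control and 132, 153 and 135 under the si-CPSF3 label, which overlap. At 35.4 ± 2.34 and 33.9 ± 2.88 CPM (SD, n = 3), its log2 fold change was -0.06 (edgeR adjusted p = 0.899), and the 95% interval of -0.41 to 0.28 was the narrowest of the 9 tested subunits. A change as large as that of NCAPD2 is outside this interval. The sign of so small a value depends on the processing, and it was 0.049 on log2(FPKM + 1).

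SMC1A, the partner ATPase of SMC3 (chromosome X, 53374149 to 53422728), had 33, 37 and 16 counts in control and 11, 7 and 24 in the other group. The groups overlap because control replicate 3 lies below replicate 3 of the si-CPSF3 label. The level was 6.44 ± 1.98 and 3.34 ± 1.93 CPM (SD, n = 3), and the log2 fold change of -0.94 (SE 0.43) had an unadjusted p of 0.0438 and did not pass (edgeR adjusted p = 0.307). With 1 library left out it ranged from -1.50 without si-CPSF3 replicate 3 to -0.59 without si-CPSF3 replicate 2.

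RAD21, the kleisin that separase cuts, lies on chromosome 8 from 116845935 to 116874866. It had 147, 184 and 135 counts in control, against 69, 128 and 150 under the si-CPSF3 label, with replicate 1 of the second group well below the rest. The level was 35.6 ± 2.60 and 27.5 ± 8.02 CPM (SD, n = 3), a log2 fold change of -0.37 (95% interval -0.81 to 0.07, edgeR adjusted p = 0.433). Without si-CPSF3 replicate 1 the log2 fold change was -0.13. RAD21 shares 518 exonic bases with UTP23 on the opposite strand, a ribosome biogenesis gene with 125 to 240 counts.

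STAG2, the HEAT-repeat subunit that binds RAD21, lies on chromosome X from 123960212 to 124422664. It was the 1 tested subunit with an estimate above 0. It had 8, 23 and 12 counts in control, against 15, 33 and 21 under the si-CPSF3 label, and the groups overlap. The level was 3.24 ± 1.50 and 5.50 ± 1.95 CPM (SD, n = 3), with a log2 fold change of 0.75 (95% interval -0.15 to 1.66) that did not pass (edgeR adjusted p = 0.432). The estimate was 1.17 without control replicate 2 (edgeR unadjusted p = 0.0293, adjusted p = 0.274), 0.46 without control replicate 1 and 0.45 without si-CPSF3 replicate 2, and it was 0.30 on log2(FPKM + 1). STAG1, its alternative in somatic cohesin, stood at 8.85 ± 0.46 and 10.3 ± 1.13 CPM with a log2 fold change of 0.21 (SE 0.25). STAG1 had more counts than STAG2 in each of the 6 libraries. That comparison is not per length.

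Levels of different subunits were compared as CPM per kilobase of 1 principal transcript of each gene in GENCODE 29. In control libraries RAD21 (9.49 ± 0.69 CPM per kilobase, SD, n = 3) and SMC3 (8.61 ± 0.57) were highest, and their libraries overlapped. SMC4 (5.40 ± 0.74) and NCAPD2 (4.91 ± 0.23) followed, also overlapping with each other. NCAPH (2.08 ± 0.20) stood apart from both neighbours, and SMC2 was next (1.07 ± 0.21), its libraries overlapping those of NCAPD3. SMC1A, NCAPD3, STAG2 and NCAPG lay between 0.453 and 0.659 CPM per kilobase on average and overlapped. Thus the partners of an obligate pair were counted at unequal levels, SMC4 above SMC2 and SMC3 above SMC1A in each library. In the libraries labelled si-CPSF3, NCAPD2 was still in place 4 at 1.82 ± 0.35, and NCAPH moved from place 5 to place 8 at 0.374 ± 0.105 CPM per kilobase. There the libraries of NCAPH overlapped those of SMC2, NCAPD3, SMC1A and NCAPG, so its place among them is not resolved. The deposited FPKM put RAD21 highest too, but in control they ranked SMC4 (7.32 ± 3.53 FPKM, SD, n = 3) above SMC3 (6.36 ± 1.15 FPKM) and SMC2 (1.28 ± 0.71 FPKM) above NCAPH (1.04 ± 0.15 FPKM).

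**Figure D3:**
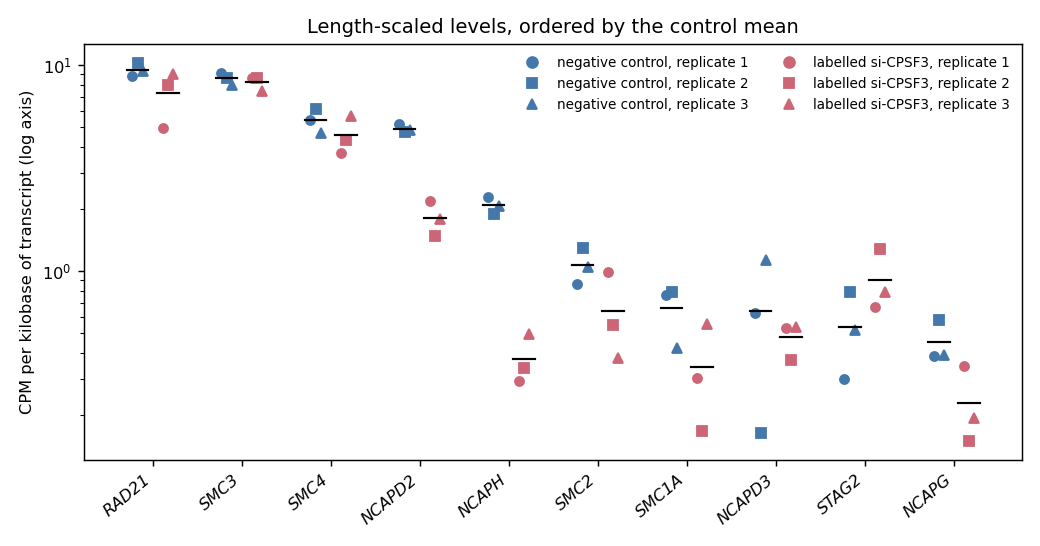
CPM per kilobase of transcript for each subunit and library on a log axis, ordered by the control mean, with bars at group means. RAD21 and SMC3 are highest in control, NCAPH falls from 2.08 to 0.374 on average, and the 4 least abundant subunits of the control order overlap.

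Of 13 genes that act on mitotic chromosomes together with condensin, 11 were tested. Of these 5 fell and 0 rose, where 1.51% of all genes tested passed as lower and 2.23% in either direction. The list was chosen with earlier results of these data known, so this count describes chosen genes and is not independent support. The median log2 fold change of the 11 was -1.38 beside -0.01 over all genes tested, with 9 below 0 and 2 above. The 2 above 0 did not pass. MCPH1, microcephalin, which restrains condensin II before mitosis, was at 0.91 with every si-CPSF3 library above control (edgeR adjusted p = 0.325). The share of all genes with such groups was not computed. With the distinct rows of each gene name summed, MCPH1 was at 0.93 and did not pass (edgeR adjusted p = 0.0900). AKAP8, an anchoring protein that recruits condensin, was at 0.16 (edgeR adjusted p = 0.881). KIF4A, CCNB1 and CDCA8 did not pass either, at -1.17, -1.46 and -1.12 (edgeR adjusted p = 0.0937, 0.0609 and 0.266). CCNB1 did pass with no filter on counts (edgeR adjusted p = 0.0127) and with distinct rows summed (0.0454). KIF4A did pass where at least 10 counts were asked of every library (edgeR adjusted p = 0.0489). MKI67, the surfactant-like coat protein of mitotic chromosomes, had 96, 128 and 83 counts in control and 34, 24 and 19 in the other group. That is a log2 fold change of -1.89 (SE 0.27, edgeR adjusted p = 0.00180). PLK1, a kinase that phosphorylates condensin, fell from 7.73 ± 1.08 to 1.82 ± 0.60 CPM (SD, n = 3; edgeR adjusted p = 0.00997). The Aurora kinase genes AURKA (log2 fold change -1.38) and AURKB (-2.10) fell as well. BIRC5, the chromosomal passenger subunit survivin, fell from 24.9 ± 3.73 to 13.0 ± 3.50 CPM (edgeR adjusted p = 0.0480). With 1 library left out, MKI67 passed in 6 of 6 fits, PLK1 in 5 and AURKA in 4. AURKB passed in 2, being lost without control replicates 1 and 3 and without si-CPSF3 replicates 2 and 3, and BIRC5 passed in 0 (adjusted p 0.0662 to 0.193). The BIRC5 call was also lost with DESeq2 size factors (edgeR adjusted p = 0.0516), upper-quartile factors (0.0553), a replicate block (0.0603) and on both FPKM scales (limma adjusted p = 0.259 and 0.267), and it held in 7 of 12 other settings. On both FPKM scales the calls of MKI67 and AURKA were lost too, and on log2(FPKM + 0.1) that of PLK1 (limma adjusted p 0.0507 to 0.147). AURKA was lost without control replicate 1 and si-CPSF3 replicate 2 (edgeR adjusted p = 0.0655 and 0.0599), and PLK1 without si-CPSF3 replicate 2 (0.0556). Under the si-CPSF3 label PLK1 had 5, 7 and 11 counts and AURKB 9, 5 and 6. Both met the filter on low counts through the control group, and asking at least 10 counts of every library removed them. TOP2A, topoisomerase II alpha of the chromosome axis and named here after its values were seen, had 13, 16 and 10 counts and then 4, 3 and 4, at a log2 fold change of -1.71 that did not pass (edgeR adjusted p = 0.107). The part of the cells' position in the cell cycle in the condensin result was not tested.

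Regulators of cohesin gave 0 edgeR calls among 10 tested of 14, with 3 at an unadjusted p under 0.05. The share of all genes under that unadjusted level was not computed, so such counts are not read as a result. The median log2 fold change of the regulators was 0.01. DESeq2 and limma-voom also gave 0 calls. With no filter on counts edgeR gave 2, and it gave 2 where at least 10 counts were asked of every library. NIPBL, which loads cohesin and drives loop extrusion, had a log2 fold change of 0.13 (SE 0.24, edgeR adjusted p = 0.860). CTCF, the DNA-binding protein at which cohesin loops stop, had 57, 74 and 79 counts in control, against 82, 98 and 112 under the si-CPSF3 label, a log2 fold change of 0.53 (SE 0.21, adjusted p = 0.239). SGO1, the shugoshin that shields centromeric cohesin, and PTTG1, the securin that restrains separase, were named after their values were seen. Their log2 fold changes were -1.24 and -1.23 (edgeR adjusted p = 0.0876 and 0.0829). The groups did not overlap for either gene, as for 11.4% of all genes tested with the si-CPSF3 label lower. SGO1 and PTTG1 were the 2 regulators called under either other filter. Their edgeR adjusted p was 0.0292 and 0.0309 with none and 0.0486 and 0.0463 with the stricter one. The SMC5/6 complex, another SMC complex, which acts in DNA repair, gave 0 calls among 4 tested of 6 by edgeR, DESeq2 and limma-voom, with 0 at an unadjusted p under 0.05; SMC5 was at -0.34 (95% interval -0.92 to 0.23), NSMCE2 at -0.18 and SMC6 at 0.07. Of the meiosis-specific cohesin genes, SMC1B and STAG3 had 0 counts in all 6 libraries and RAD21L1 had 0 or 1. On the highest-mean row of its name, REC8 was counted at 66 to 118 per library with a log2 fold change of 0.28 (edgeR adjusted p = 0.539). With its distinct rows summed, the log2 fold change of REC8 was 0.02 (edgeR adjusted p = 0.976).

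**Figure D4:**
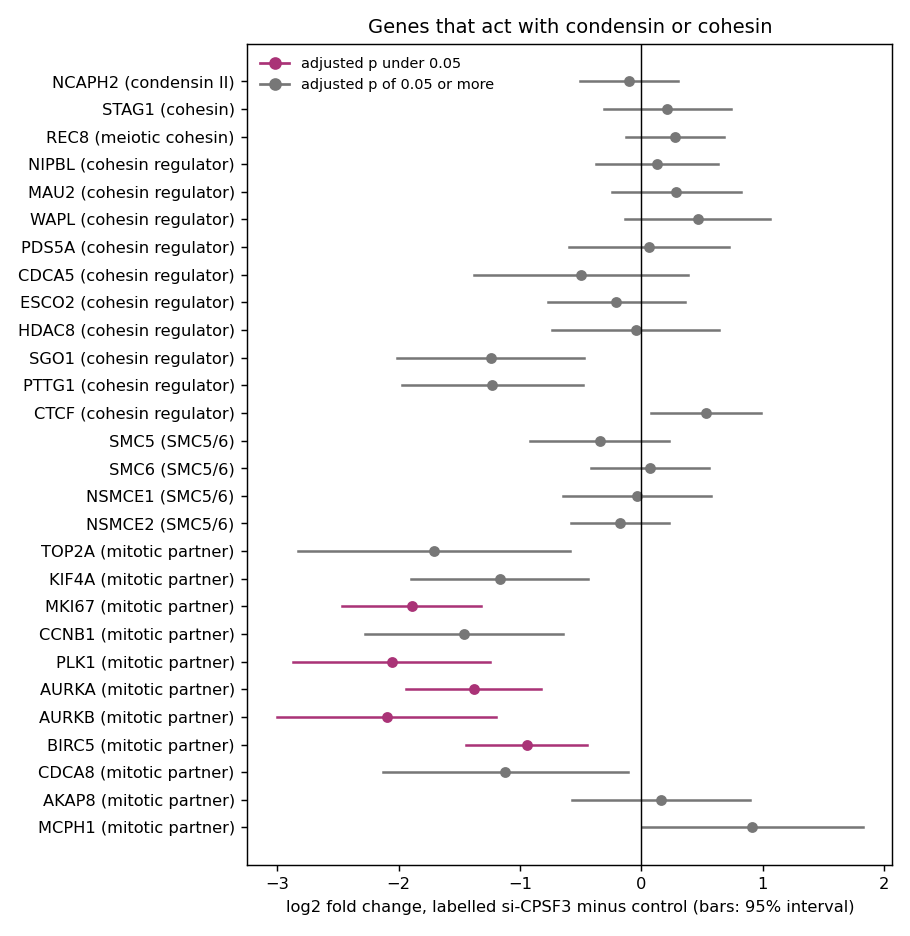
Log2 fold change with its 95% interval for the tested genes of the related lists, coloured by whether the adjusted p was under 0.05. The 5 called genes are all mitotic partners of condensin, and the 4 tested SMC5/6 genes lie between -0.34 and 0.07.

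Across the processing settings tried, NCAPD2 and NCAPH kept a log2 fold change below 0 in each setting that tested them, and the other 7 tested subunits passed in 0 settings. On log2(FPKM + 1) the NCAPH value shrank to -0.78, where 4 of its 6 FPKM values lie below the pseudocount of 1.

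**Figure D5:**
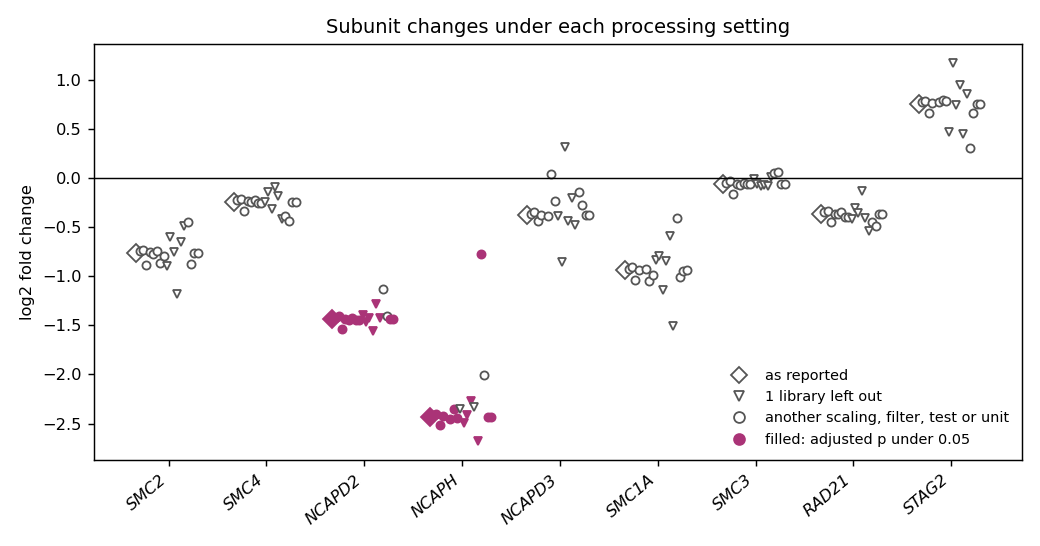
Log2 fold change of each tested subunit under every processing setting, with filled symbols where the adjusted p was under 0.05. NCAPD2 and NCAPH stay below 0 throughout, and the other 7 subunits have no filled symbol.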

How the data were processed

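Gene expression was measured by RNA sequencing with a SMARTer mRNA kit, per the labels' protocols, and hg38 is named in the submitters' processing notes. The authors deposited raw counts and FPKM values for 6 libraries; the aligner, counter, strand setting and annotation are not stated in the sources used here. Taken relative to the library median, the ratio of count to FPKM varied between libraries by a median of 1.55-fold per gene over the 3592 genes that no library had under 50 counts or under 1 FPKM, so FPKM served as an alternative.

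The highest-mean row of each gene name was kept. edgeR 4.0.16 (R 4.3.3) tested raw counts with the quasi-likelihood F test, TMM factors, filterByExpr, no term but group, and p-values adjusted over 11069 genes by Benjamini-Hochberg (two-sided, threshold 0.05). DESeq2 1.42.0 and limma 3.58.1 were alternatives. CPM used the library sizes of the genes tested times their TMM factors (0.877 to 1.11). Intervals are 95% from the fit, and ± is the SD of 3 libraries. The code was tested on simulated data. Replicates differed by more than sampling noise (chi-square per degree of freedom 6.69 to 16.4). All subunits were described, and in each related list the genes that passed or, where 0 passed, up to 2 of the most abundant tested. Further related genes, among them SMC5, KIF4A, CCNB1, CDCA8, MCPH1 and AKAP8, were named outside this rule with their values known. Members, lists and motifs were chosen with earlier results of these data known.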

Additional observations from a re-analysis of the deposited data

How the results depend on the processing

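With another scaling, filter, test or unit, the log2 fold change of NCAPD2 ranged from -1.54 to -1.13 and it passed in 10 of 12 settings, failing on both FPKM scales. That of NCAPH ranged from -2.52 to -0.78 and passed in 10 of 11, failing on log2(FPKM + 0.1) at -2.01 (limma adjusted p = 0.0622). The other 7 tested subunits passed in 0. The 2 condensin calls became 1 where at least 10 counts were asked of every library, which removed NCAPH, 1 on log2(FPKM + 1) and 0 on log2(FPKM + 0.1), and 1 to 2 with a library left out. SMC3 reversed to 0.049 on log2(FPKM + 1) and 0.056 on log2(FPKM + 0.1), and ranged from -0.087 to 0.010 with a library left out, above 0 without si-CPSF3 replicate 3. NCAPD3 reversed to 0.037 with limma-voom and ranged from -0.86 to 0.31 with a library left out, above 0 without control replicate 3. The cause was not tested. The 247 changed genes became 547 with no filter, 41 on log2(FPKM + 1), 31 on log2(FPKM + 0.1) and 85 to 199 with a library left out, of which 122, 115 and 85 are the counts without control replicate 1, si-CPSF3 replicate 1 and si-CPSF3 replicate 2. The 5 related genes called became 8 with no filter, 2 on log2(FPKM + 1), 1 on log2(FPKM + 0.1) and 1 to 4 with a library left out. Pairing by replicate number was not seen. Deviations of same-numbered libraries correlated at -0.05 to 0.08, and those of differently numbered libraries at -0.13 to 0.07. With 3 libraries in each group this cannot exclude a pairing, and the labels do not state one. With a replicate block 147 genes passed, NCAPD2 and NCAPH among them. Scaling by library totals moved the median of all genes to -0.10 and changed no subunit call. NCAPG, with 3 to 13 counts per library, was too shallow for the test.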
